A study of Mus musculus with 6 samples.

Results

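LTR retrotransposons outside the ERVK family held 3152 of the 74076 open chromatin regions listed for mouse liver, 4.26% of them. The members are peaks whose detailed annotation names a repeat of the LTR class and any family other than ERVK. No accessibility value was used to choose them. By family they were 1513 MaLR peaks, 1176 ERV1 peaks, 446 ERVL peaks and 17 peaks of rarer or uncertain families (ERV, Gypsy, Gypsy?, ERV1?, ERVL? and unspecified LTR). Accessibility was measured with ATAC-seq, an assay whose transposase inserts sequencing adapters into open DNA, in bulk nuclei of fresh liver of male C57BL/6J mice at 8 weeks of age. The fasted group of 3 libraries (replicates 1, 3 and 4) had a fast of 12 h that began at 10 pm. In the refed group of 3 libraries (replicates 5, 7 and 8) the fast of 12 h began at 10 am and was followed by 12 h on a diet holding 69% sucrose and 10% fat. Tissue from every mouse was taken at 10 am. Both groups had therefore been through a fast, at different hours, and eating, this diet and clock time cannot be told apart as sources of a difference.

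LTR retrotransposons are remnants of retroviruses and related elements that copied themselves through RNA. An intact copy has an internal part with viral genes, named with the ending int in this annotation, between a pair of long terminal repeats that carry the promoter and binding sites for transcription factors. Recombination between the repeats leaves many copies as a lone LTR. ERV1 elements resemble gammaretroviruses and in mouse include VL30 and murine leukaemia virus-like copies. ERVL elements and the related, non-coding MaLR group, with the MT and ORR1 subfamilies of rodents and the older MLT subfamilies shared among mammals, belong to an older class. Such copies are usually held silent by DNA methylation and by histone methylation recruited through KRAB zinc finger proteins, and some LTRs act as promoters or enhancers of host genes.

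Reads within peaks numbered 3205634 to 4850613 per library. At a promoter, 10 of 10 hepatocyte marker genes had a peak, as did 2 of 4 cholangiocyte, 2 of 4 endothelial, 1 of 4 stellate, 1 of 7 lymphocyte, 2 of 3 neuron, 0 of 5 Kupffer and myeloid and 0 of 3 skeletal muscle genes. The summed level of the hepatocyte promoters ran from 332 to 337 RPKM (reads scaled to peak length and to the library's reads in peaks) in fasted and from 339 to 380 RPKM in refed libraries, without overlap. Endothelial promoters summed to 36.4 to 39.4 RPKM in fasted and 32.7 to 34.9 RPKM in refed libraries, and the stellate promoter to 15.4 to 18.7 and 19.2 to 20.5 RPKM, also without overlap. The cholangiocyte, lymphocyte and neuron sums overlapped. No marker promoter peak was called by the limma test described below, and the part of these marker levels in the results was not tested. In bulk liver, a peak open in fewer cells and a peak less open in each cell cannot be told apart. Whether the libraries are of separate animals is not in the labels, and so p-values rest on the spread among the libraries, which may be technical.

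Every LTR peak was annotated as intergenic (2160, 68.5%) or intronic (992, 31.5%), against 43.2% and 35.7% of all peaks. The rest of all peaks carried other annotations, such as promoter or exon, which no member had. The contrasts with all peaks in place, distance and width therefore follow in part from how the members were defined. Introns held 17.3% of ERV1, 32.7% of ERVL and 42.1% of MaLR peaks. The median distance to the nearest gene start was 33574 bp, against 20090 bp for all peaks, 59965 bp for ERVK and 122088 bp for LINE L1 peaks. Within 10 kb of a start lay 17.5% of the LTR peaks and 36.8% of all peaks. The median width was 373 bp, against 435 bp over all peaks.

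ERVL and MaLR peaks were about as open as the average peak, and ERV1 peaks held few reads. The median level per peak was 15 RPKM in ERVL and 15.5 RPKM in MaLR, close to the 15.7 RPKM of all peaks, and 2.76 RPKM in ERV1. The corresponding median of mean reads per library was 23.7, 23.0, 26 and 3.67. A mean under 10 reads was found in 65.5% of ERV1, 10.2% of MaLR and 7.40% of ERVL peaks. No read in any of the 6 libraries was recorded at 20.3% of ERV1, 3.59% of ERVL and 2.78% of MaLR peaks, against 5.04% of all peaks, 19.4% of ERVK and 25.7% of LINE L1 peaks. In all, 297 LTR peaks were empty in every library and hold no information on the comparison.

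The 220 repeat names divided the same way. Of the 12 names with at least 50 peaks, the MaLR subfamilies MTD (325 peaks), ORR1E (137), MTC (70), MTE2a (64), ORR1D2 (60) and MTEa (59), and the ERVL subfamily RMER15 (84), had median levels from 14.5 RPKM at MTE2a to 17.5 RPKM at MTEa. The 5 ERV1 names, RLTR6_Mm (241), MMVL30-int (201), RLTR6-int (102), MuRRS-int (69) and RLTR4_Mm (59), had median levels from 0.805 RPKM at RLTR4_Mm to 3.01 RPKM at MuRRS-int. At RLTR4_Mm, 71.2% of peaks were empty in all libraries, and at RLTR6_Mm 40.2%.

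**Figure D1:**
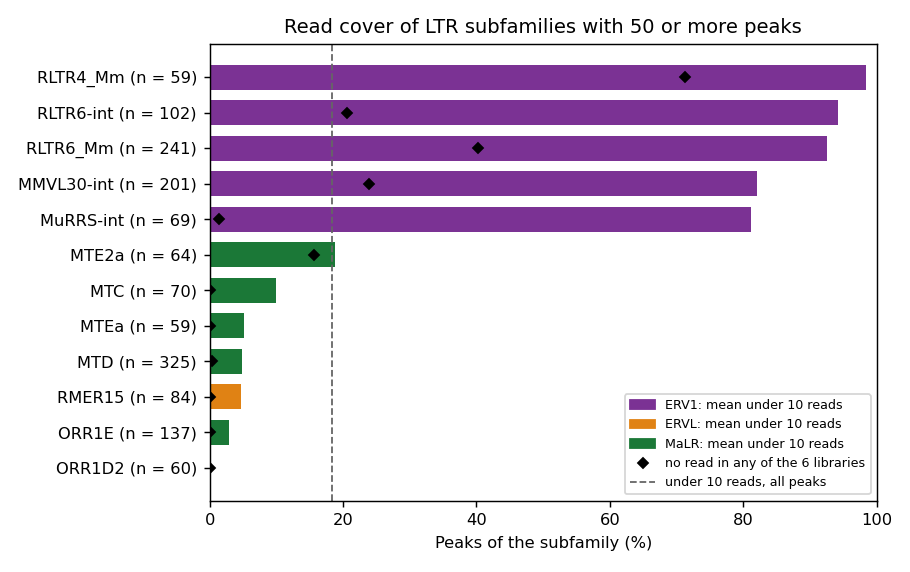
Share of peaks with a mean under 10 reads (bars, coloured by family) and share with no read in any of the 6 libraries (diamonds) in the 12 LTR subfamilies with at least 50 peaks; the dashed line is the share under 10 reads among all peaks. The 5 ERV1 subfamilies lie at the top, with RLTR4_Mm at 71.2% empty, and ORR1D2 has no peak under 10 reads.

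VL30 is a retrovirus-like element of mouse that can be packaged into virus particles but codes for no functional virus protein. Its LTR (RLTR6_Mm) and internal parts (RLTR6-int and MMVL30-int) made up 544 peaks, 46.3% of ERV1. Of these, 166 peaks (30.5%) were empty in every library, the median level was 1.14 RPKM, and 64 held enough reads for the count test. Per the file headers only unique reads were kept, and reads that match several near-identical copies cannot enter such counts; the part of this filter in the low values was not tested. The mammal-wide names, whose copies are older and more diverged, had 0 of 619 peaks empty in all libraries, against 11.6% of 2500 peaks with rodent names. Among rodent names the empty share differed by family: 21.8% in ERV1, 6.45% in ERVL and 3.27% in MaLR.

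The 20 peaks with the highest mean RPKM ran from 46.9 to 99.9 RPKM. Of these, 7 lay on chromosome Y between 2796346 and 2902519 and 2 at Sfi1. The limma test between groups called 0 of the 20, with 2 at an unadjusted p under 0.05. EdgeR called 2 and DESeq2 1. Over all peaks limma called 1.23%, edgeR 3.31% and DESeq2 1.22%, counting peaks not tested, and 14.5% had an unadjusted limma p under 0.05. Counts among 20 peaks therefore say little about stability. The highest was an MTD in intron 6 of 32 of Sfi1, a centrin-binding protein gene, at chromosome 11 from 3073476 to 3073785. It reached 77.8, 130 and 93.1 RPKM in fasted and 91.9, 117 and 90.3 RPKM in refed libraries, and its log2 change was 0.01 ± 0.15 (SE; adjusted p = 0.999 in limma). An ORR1D1 upstream of the same gene averaged 79.1 ± 25.7 RPKM in fasted and 87.6 ± 26.4 RPKM in refed libraries (SD, n = 3 each). At both Sfi1 peaks the shallowest library of each group, fasted replicate 3 and refed replicate 7, had the highest level.

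An ORR1D2 in intron 33 of 38 of Uggt2, a gene for a glycoprotein folding sensor, followed among MaLR peaks with 85.3 ± 11.3 and 82.8 ± 4.16 RPKM. In ERV1 the 3 strongest peaks were on chromosome Y, assigned to Gm3376 although its start is more than 100 kb away. They were a MuRRS4-int with 73 ± 7.05 RPKM in fasted and 79.4 ± 10.9 RPKM in refed libraries, and a pair of MMERGLN-int peaks with 69.1 ± 13.8 and 66.9 ± 4.22 RPKM, and 55.2 ± 11.5 and 62.1 ± 8.56 RPKM. In ERVL they were an RMER15 nearest to 4930524C18Rik (50.7 ± 15.6 and 56.3 ± 9.45 RPKM), an LTR33B 1079 bp upstream of the nuclear transport gene Xpo7 (46.4 ± 3.8 and 49.7 ± 1.98 RPKM) and an RMER10A in intron 2 of 11 of Sec14l4 (49.2 ± 2.23 and 44.6 ± 4.68 RPKM). At each of these 7 peaks the groups overlapped and the limma adjusted p was at least 0.611.

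On the sex chromosomes LTR peaks were a larger part of the listed peaks than the 4.26% of the whole set. LTR peaks outside ERVK made up 17.3% of the peaks on chromosome Y (34 peaks) and 7.59% of those on chromosome X (204 peaks). The median of mean reads was 3.58 on Y and 0.667 on X. Assigned to a single gene, Vmn2r121 (a pheromone receptor gene on chromosome X), were 31 of these peaks, with a median of 0 reads. Of the 238 LTR peaks on X and Y, 0 passed the limma test between groups. An unadjusted limma p under 0.05 was found at 11, edgeR called 2 and DESeq2 0. Over all peaks limma called 1.23%, and 14.5% had an unadjusted p under 0.05. EdgeR called 3.31% and DESeq2 1.22% of all peaks, counting those they did not test. Most LTR peaks on X and Y held few reads, which limits what can be called there.

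Summed over each family, the share of reads in peaks changed little between fasted and refed liver. All 3152 peaks together took 2.07%, 1.75% and 1.83% of the reads in peaks in fasted and 1.99%, 1.84% and 2.0% in refed libraries, a ratio of group means of 1.03. ERVL (ratio 0.988) and MaLR (1.03) overlapped between groups, and fasted replicate 1 was the highest library in both. ERV1 took 0.404%, 0.387% and 0.383% in fasted and 0.419%, 0.415% and 0.433% in refed libraries, so that the groups did not overlap (ratio 1.08). No test was made on these sums.

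The ERV1 ratio was 1.07 among peaks with 10 or more mean reads and 1.16 among those with fewer. In each of these parts the groups overlapped, unlike in the ERV1 sum. For comparison, peaks of any annotation with a mean under 10 reads, 13589 in all, took 0.717%, 1.06% and 0.869% of reads in fasted and 0.903%, 1.21% and 1.09% in refed libraries, a ratio of 1.21 with groups that overlapped. Within each group the ERV1 peaks under 10 mean reads ordered the libraries as all weak peaks did. The summed ERV1 share did not: fasted replicate 1 had the lowest weak-peak share and the highest ERV1 share of the fasted libraries. Refed replicate 7 had the highest weak-peak share and the lowest ERV1 share of the refed ones. The part of weak peaks in the ERV1 difference was not tested. VL30 peaks had a ratio of 1.14 with groups that did not overlap, and ERV1 peaks on chromosome Y 1.13 with groups that did. LINE L1 peaks, at 1.12 with groups that did not overlap, and ERVK peaks, at 1.08 with overlap, had ratios on the same side.

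**Figure D2:**
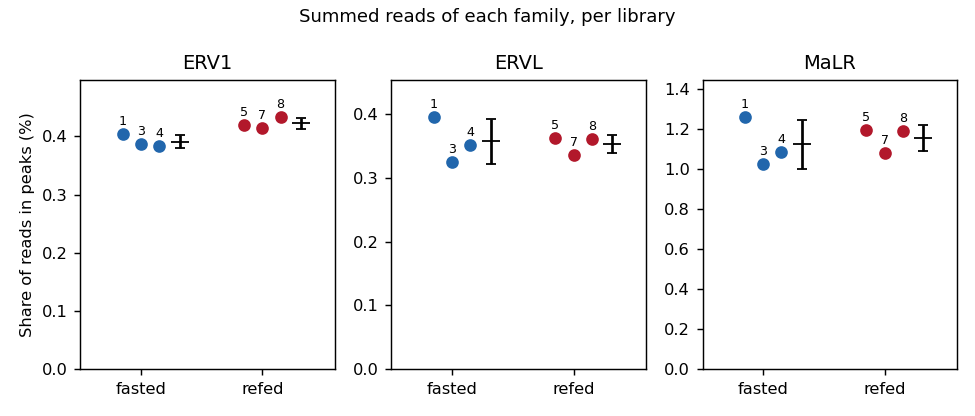
Share of the reads in peaks (%) taken by all ERV1, ERVL and MaLR peaks in each library (points, numbered by replicate), with the mean and SD of 3 libraries beside them and axes that start at 0. The ERV1 groups do not overlap (ratio of means 1.08), and the ERVL and MaLR groups do.

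Between refed and fasted liver, 31 of the 3152 LTR peaks rose and 17 fell (limma on log2 RPKM of all 74076 peaks, Benjamini-Hochberg adjusted p under 0.05). These are 0.984% and 0.539% of the LTR peaks, against 0.802% higher and 0.427% lower over all peaks, or 1.52% against 1.23% in either direction: the counts stand near the background. At an unadjusted p under 0.05 there were 525 LTR peaks (16.7%, against 14.5% of all peaks). The median log2 change over LTR peaks with at least 10 mean reads was 0.02, against -0.00 over all such peaks. Among peaks with at least 10 mean reads, 2.10% of LTR peaks and 1.42% of all peaks were called.

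Other call rules gave other counts. On whole reads recovered from the RPKM, edgeR's quasi-likelihood test called 71 LTR peaks higher and 47 lower of the 2224 it tested, 3.19% and 2.11%, against 2.58% and 1.43% of all peaks tested. DESeq2 called 28 and 17 of 2073, against 0.981% and 0.577% of all. The authors' deposited table of edgeR results lists 108 LTR peaks higher and 63 lower in refed liver, against 2.81% and 1.66% of all peaks. Groups that did not overlap were found at 365 LTR peaks higher and 246 lower in refed libraries, or 11.6% and 7.80%, against 10.5% and 8.57% of all peaks. Of the 48 limma calls, 47 were also edgeR calls, 35 were DESeq2 calls and all 48 are in the authors' deposited table.

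The limma counts moved when a library was left out. Each such fit also had fewer libraries to test on, and the part of this was not tested. Calls over all peaks moved as well, from 0.104% higher and 0.0985% lower without refed replicate 8 to 1.31% and 0.277% without fasted replicate 1. Of the LTR peaks, 0.0952% and 0.0952% were called in the former fit and 1.43% and 0.254% in the latter. Leaving out fasted replicate 1 gave 45 higher and 8 lower, leaving out fasted replicate 3 gave 28 and 15, and leaving out fasted replicate 4 gave 8 and 1. Leaving out a refed library gave 7 and 13 for replicate 5, 6 and 7 for replicate 7, and 3 and 3 for replicate 8. With no intensity trend in its prior limma called 0 LTR peaks, with 540 at an unadjusted p under 0.05. Quantile normalization left 1 higher and 1 lower, 0.0317% of LTR peaks each way. Both settings cut the calls over the whole peak set too. It had 0 calls without the trend, and 0.0958% higher and 0.0310% lower after quantile normalization. Of the 48 called peaks, 3 (near Scd1, Eva1c and Cyp4a32) kept their call with any library left out, and among the others the adjusted p reached at most 0.230.

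Of the 48 limma calls, 38 were MaLR copies. MaLR had 24 higher and 14 lower (2.51% of the family), ERVL 4 and 1 (1.12%), ERV1 2 and 2 (0.340%), and the family listed as ERVL? had 1 higher. Among peaks with at least 10 mean reads limma called 2.72% of MaLR, 1.21% of ERVL and 0.739% of ERV1 peaks. With edgeR the families were closer: it called 50 higher and 27 lower of 1374 MaLR peaks tested (5.60%), 11 and 11 of 414 ERVL peaks (5.31%) and 9 and 9 of 420 ERV1 peaks (4.29%), against 4.01% of all peaks tested. The difference between families was not tested. MTD had 5 higher and 2 lower of 325 peaks, ORR1E 3 and 3 of 137, RMER15 3 and 1 of 84, and MTC and MTEa 2 higher each. Peaks named for an LTR held 28 higher and 13 lower of 2278 peaks (1.80%). Those named for an internal part held 3 and 4 of 874 (0.801%). Rodent names had 25 and 11 of 2500 (1.44%), mammal-wide names 6 and 6 of 619 (1.94%), against 1.23% of all peaks. A mean under 10 reads was found in 21.9% of LTR-named, 52.7% of internal, 37.5% of rodent and 2.10% of mammal-wide peaks. In that order, 2.19%, 1.69%, 2.18% and 1.98% of peaks with at least 10 mean reads were called, against 1.42% of all such peaks.

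The called peaks changed by a median log2 of 1.41 when higher (0.58 to 2.65) and of -1.24 when lower (-2.98 to -0.73), and 28 and 11 of them changed by at least 2-fold. The higher peaks included 22 intergenic and 9 intronic copies, the lower peaks 11 and 6. They lay on 16 chromosomes. Another called peak within 20 kb was found for 10 of the 48 (20.8%), in each case with the same direction, against 218 of all 910 called peaks (24%), of which 7 had one with the opposite direction. The median called peak held 38.5 mean reads per library, so many values rest on few reads.

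**Figure D3:**
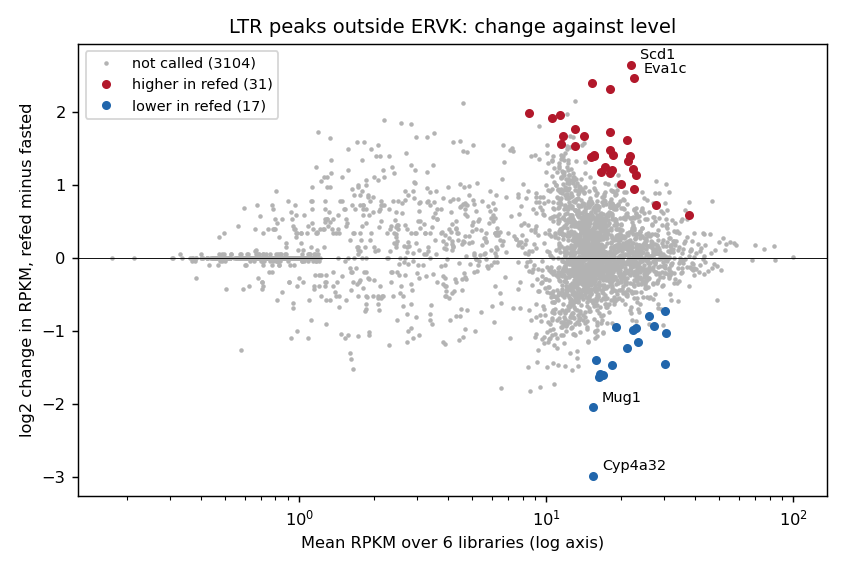
Log2 change in RPKM (refed minus fasted) against mean RPKM over 6 libraries (log axis) for the 3152 LTR peaks outside ERVK. The 31 peaks higher (red) and 17 lower (blue) in refed liver lie mostly at levels around 10 to 40 RPKM, and peaks empty in every library form the line at 0 on the left.

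The largest gain was an MTD copy near Scd1, which encodes stearoyl-CoA desaturase, the enzyme that makes monounsaturated fatty acids. The copy lay 11990 bp upstream of the Scd1 start, at chromosome 19 from 44494023 to 44494355. It held 10, 12 and 4 reads in fasted and 53, 46 and 48 reads in refed libraries, or 6.19, 11.2 and 2.94 RPKM against 38.1, 42.7 and 30.8 RPKM. All refed libraries were well above all fasted ones, and the log2 change was 2.65 ± 0.40 (SE, limma adjusted p = 0.00934). The 12 largest gains and 12 largest losses, here and below, were chosen from called peaks whose groups did not overlap. Separation of the groups at these peaks is therefore required by the choice and adds no support. Another 3 called peaks lay within 20 kb, all higher in refed liver. With any library left out the peak kept its call (limma adjusted p of at most 0.0427).

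MTEa copies gave the next gains. The peak in intron 1 of 5 of Eva1c, a gene for a membrane protein, lay at chromosome 16 from 90863196 to 90863747 and held 17, 16 and 13 reads in fasted and 76, 80 and 96 reads in refed libraries. The fasted mean was 7.05 ± 1.75 RPKM and the refed mean 38.3 ± 5.97 RPKM (SD, n = 3 each), with the smallest limma adjusted p among LTR peaks (2.46 ± 0.26, SE, adjusted p = 0.00135). The peak in intron 20 of 20 of Amph, which encodes the endocytosis protein amphiphysin, had 13.0, 2.68 and 2.80 RPKM in fasted and 23.3, 25.7 and 23.9 RPKM in refed libraries (2.40 ± 0.52, limma adjusted p = 0.0423). Fasted replicate 1 stood above the other fasted libraries there, at 22 reads against 3 and 4. The Eva1c peak kept its call with any library left out, and the Amph peak kept it only without fasted replicate 1 (limma adjusted p of up to 0.140 without one of the other libraries).

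Old MLT copies shared by mammals also rose. An MLT1F2 in intron 17 of 20 of Nid2, a gene for the basement membrane protein nidogen 2, had 10.3, 7.78 and 2.44 RPKM in fasted and 35.8, 28.5 and 23.4 RPKM in refed libraries. The file assigns it to 2700060E02Rik, whose start is nearer, and the log2 change was 2.31 ± 0.45 (limma adjusted p = 0.0276). An MLT1L 10182 bp upstream of Prph, which encodes the neuronal filament peripherin, rose by 1.61 ± 0.29 on the log2 scale (limma adjusted p = 0.0209), from 10.8 ± 3.97 to 31.4 ± 4.4 RPKM. Without refed replicate 7 or 8 neither copy was called, nor the Nid2 copy without refed replicate 5 (limma adjusted p of up to 0.0846).

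The other MaLR copies among the 12 largest gains rose by 1.67 to 1.76 on the log2 scale. An MTD 8217 bp upstream of Serpina6, the liver gene for corticosteroid-binding globulin, had 7.25, 4.98 and 5.47 RPKM in fasted and 15.3, 18.7 and 26.6 RPKM in refed libraries (1.76 ± 0.35, limma adjusted p = 0.0296). An ORR1D1 near 1810008I18Rik rose from 8.52 ± 2.4 to 27.8 ± 5.24 RPKM (adjusted p = 0.0143), with another called peak within 20 kb. An MTC far upstream of Fat1, a gene of a large cadherin, rose from 7 ± 2.71 to 21.3 ± 4.37 RPKM (adjusted p = 0.0451). An ORR1E near Tmem177, a gene for a mitochondrial membrane protein, rose from 5.61 ± 1.62 to 17.6 ± 4.06 RPKM (adjusted p = 0.0486). At each of these the lowest refed library was above the highest fasted one. The calls were lost without refed replicate 7 at all 4, without fasted replicate 4 or refed replicate 8 at Serpina6, Fat1 and Tmem177, and without refed replicate 5 at 1810008I18Rik, Fat1 and Tmem177. They were also lost without fasted replicate 3 at Fat1 and fasted replicate 1 at Tmem177, where the limma adjusted p reached 0.230.

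The largest loss was an ORR1B2 copy in intron 4 of 12 of Cyp4a32, a cytochrome P450 gene of the fatty acid omega-hydroxylase family. At chromosome 4 from 115281477 to 115281775 it held 36, 34 and 26 reads in fasted and 8, 2 and 4 reads in refed libraries, or 24.8, 35.5 and 21.3 RPKM against 6.41, 2.07 and 2.86 RPKM. Every refed library was below every fasted one, and the log2 change was -2.98 ± 0.45 (SE, limma adjusted p = 0.00873). Another called peak lay within 20 kb, also lower in refed liver. The call held with any library left out (limma adjusted p of at most 0.0353). Cyp4a genes lie in a cluster of close copies, and only unique reads were counted.

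An ORR1E copy 51690 bp from the start of Mug1, the gene for the plasma protease inhibitor murinoglobulin, fell by 2.05 ± 0.37 on the log2 scale (limma adjusted p = 0.0201). It lay at chromosome 6 from 121839869 to 121840629 and held 123, 43 and 73 reads in fasted and 13, 21 and 20 reads in refed libraries. Fasted replicate 1 had the highest level, 33.3 RPKM against 17.6 and 23.5 RPKM, and refed libraries were between 4.09 and 8.52 RPKM. It had 1 other called peak within 20 kb, also lower in refed liver. It was not called when fasted replicate 1 or 4 or refed replicate 8 was left out (limma adjusted p of up to 0.0859).

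Intronic copies also fell in Lars, Tmem260 and Nxph1. An MTD in intron 15 of 31 of Lars, the cytosolic leucyl-tRNA synthetase gene, had 27.9, 20.9 and 25.3 RPKM in fasted and 8.36, 6.29 and 9.33 RPKM in refed libraries (-1.64 ± 0.28, limma adjusted p = 0.0175). An MLT1C in intron 13 of 13 of Tmem260 fell from 25.4 ± 3.67 to 8.41 ± 2.03 RPKM (adjusted p = 0.0189). An ORR1C1-int in intron 1 of 1 of Nxph1, the gene of the secreted neurexin ligand neurexophilin 1, fell from 32.1 ± 6.05 to 14.6 ± 3.95 RPKM (adjusted p = 0.0371). In all 3 the groups did not overlap. Without fasted replicate 4 none of the 3 was called, nor the Tmem260 and Nxph1 copies without refed replicate 8, nor the Nxph1 copy without fasted replicate 1 or refed replicate 7 (limma adjusted p of up to 0.143).

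Intergenic MaLR losses included an MTE-int 9933 bp upstream of Kyat1, which encodes kynurenine aminotransferase 1. It had 25.4, 24.7 and 23.2 RPKM in fasted and 5.30, 9.77 and 10.1 RPKM in refed libraries (-1.60 ± 0.30, limma adjusted p = 0.0251). An ORR1E near Cyyr1 (-1.46), an MTD near BC048403 (-1.40), an MTEb-int near 2810459M11Rik (-1.24) and an ORR1E near Tex43 (-1.0) also fell, with limma adjusted p from 0.0189 to 0.0396. At each the highest refed library was below the lowest fasted one. Without fasted replicate 4 none of the 5 was called (limma adjusted p of up to 0.122 with any library left out). The MTEb-int call held without any other library. The other 4 were lost without fasted replicate 1 or refed replicate 8, those near Cyyr1, BC048403 and Tex43 without refed replicate 7, Tex43 without refed replicate 5, and Kyat1 without fasted replicate 3.

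**Figure D4:**
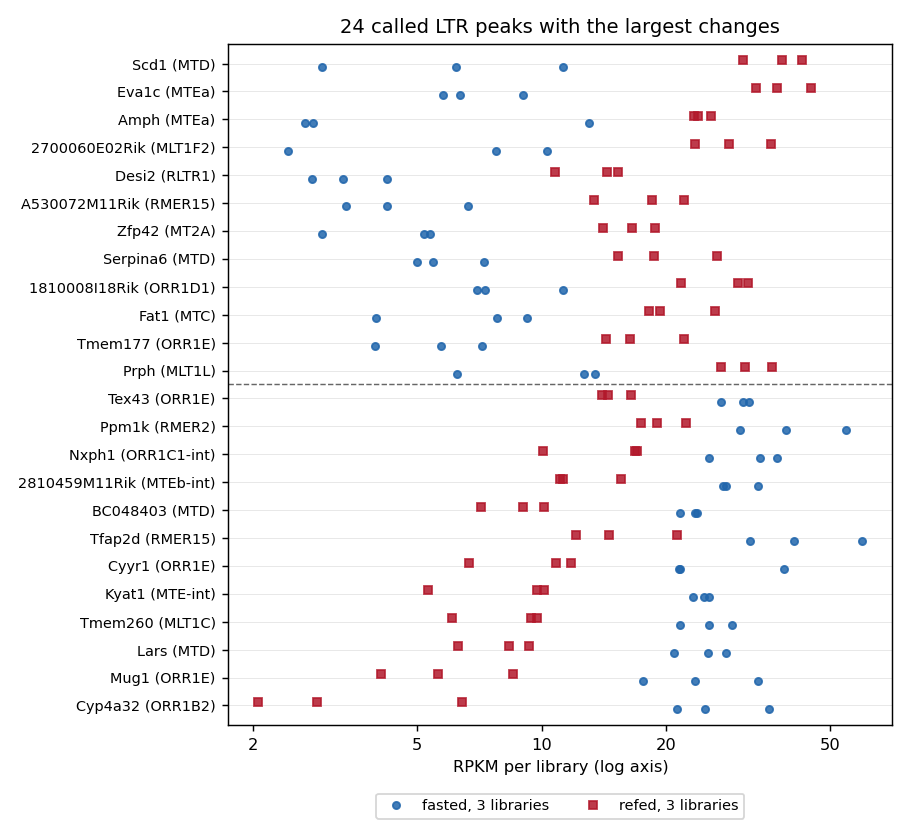
RPKM in each library (log axis; circles fasted, squares refed, 3 libraries each) at the 12 gains and 12 losses with the largest log2 changes among called LTR peaks, named by nearest gene and repeat and sorted by change. The dashed line parts gains from losses; at none of the 24 do the groups overlap, which the choice of peaks requires.

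The called ERVL copies were of the MT2A and RMER15 subfamilies. MT2 LTRs belong to the MERVL lineage, whose young copies are known for their activity in the earliest mouse embryo. An MT2A at chromosome 8 from 44343285 to 44343602, 48920 bp from the start of Zfp42 (the pluripotency marker Rex1), had 5.19, 2.94 and 5.38 RPKM in fasted and 18.8, 16.5 and 14.1 RPKM in refed libraries. The refed libraries were all higher, with a log2 change of 1.91 ± 0.40 (limma adjusted p = 0.0362), on 3 to 8 reads per fasted library and 17 to 25 per refed library. The call was lost without fasted replicate 4 or any 1 refed library (limma adjusted p of up to 0.128).

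RMER15 copies moved both ways. The copy nearest to A530072M11Rik, 774332 bp from its start, had 3.36, 4.24 and 6.65 RPKM in fasted and 22.1, 18.5 and 13.4 RPKM in refed libraries (1.95 ± 0.40, limma adjusted p = 0.0343). The copy 132686 bp upstream of Tfap2d, a gene of the AP-2 transcription factors, had 59.7, 31.9 and 40.8 RPKM in fasted and 21.2, 12.1 and 14.6 RPKM in refed libraries (-1.46 ± 0.25, adjusted p = 0.0165). The other RMER15 calls, named here after their values were seen, were a copy in intron 3 of 5 of the ubiquitin-conjugating enzyme gene Ube2e2 (10.3 ± 0.859 to 24.3 ± 1.37 RPKM, adjusted p = 0.025) and one 6371 bp from the start of H2-Q10, a class I histocompatibility gene of liver (14.8 ± 5.22 to 31.1 ± 1.91 RPKM, adjusted p = 0.0475). Without fasted replicate 4 or refed replicate 8 none of the 4 was called, and without refed replicate 5 or 7 only the Tfap2d copy was (limma adjusted p of up to 0.139).

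The 4 called ERV1 copies were an RLTR1, an RMER2, an MMVL30-int and a MER57E1. The RLTR1 in intron 1 of 4 of Desi2 held only 3, 3 and 3 reads in fasted and 10, 11 and 15 reads in refed libraries. Its log2 change was 1.98 ± 0.42 (limma adjusted p = 0.0403), and edgeR's filter left it out. The RMER2 5814 bp upstream of Ppm1k, whose phosphatase activates the breakdown of branched-chain amino acids, had 54.4, 30.3 and 38.9 RPKM in fasted and 19.1, 17.4 and 22.4 RPKM in refed libraries (-1.04 ± 0.20, adjusted p = 0.0285). At Ppm1k all 3 refed libraries were below the fasted ones, and fasted replicate 1 was the highest. Neither copy was called without fasted replicate 1, fasted replicate 4, refed replicate 7 or refed replicate 8, nor the Desi2 copy without refed replicate 5 (limma adjusted p of up to 0.167).

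The remaining pair of ERV1 calls was named after the values were seen. The MMVL30-int copy at chromosome 4 from 107809536 to 107810242, 18737 bp upstream of Scp2 (sterol carrier protein), was the one VL30 peak called. It held 28, 29 and 29 reads in fasted and 77, 65 and 86 reads in refed libraries, or 8.16, 12.8 and 10.0 RPKM against 26.1, 28.4 and 26.0 RPKM (1.40 ± 0.25, limma adjusted p = 0.0187). The MER57E1 67087 bp from the start of Akr1d1, the steroid 5-beta-reductase gene of bile acid synthesis, fell from 32.9 ± 3.88 to 19 ± 2.33 RPKM (-0.80 ± 0.17, adjusted p = 0.0454). The called copy of the ERVL? family was an LTR87 more than 100 kb from any gene start (1.17 ± 0.26, adjusted p = 0.0466). The MMVL30-int call was lost without fasted replicate 4 or any 1 refed library (limma adjusted p of up to 0.0902), the MER57E1 call without any 1 library (up to 0.126), and the LTR87 call without any 1 except fasted replicate 1 (up to 0.187).

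A further 5 called MaLR copies are named here, chosen after their values were seen. An MTD in intron 10 of 27 of Abcb11, the bile salt export pump gene, rose from 5.8 ± 1.11 to 17 ± 2.87 RPKM (limma adjusted p = 0.0489). An ORR1E 6673 bp upstream of Sdc1 (syndecan 1) and an MTEb 7998 bp upstream of Pdia6 (a protein disulfide isomerase) rose by 0.73 and 0.95 on the log2 scale. An MLT1A0 3207 bp upstream of Slc27a2, which encodes a very long-chain acyl-CoA synthetase, and an MLT1C near Herpud1, a gene of protein degradation at the endoplasmic reticulum, fell by 0.93 and 0.96. None of these 5 was called without fasted replicate 4, refed replicate 7 or refed replicate 8, and only the Herpud1 copy was called without refed replicate 5. Without fasted replicate 3 the Abcb11, Sdc1 and Pdia6 calls were lost, and without fasted replicate 1 the Slc27a2 call (limma adjusted p of up to 0.228).

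No peak of the families without a call came near the threshold. The smallest limma p was at an LTR55 (ERV) near Zfp26, a MamGypLTR1a (Gypsy) near Twist2, an LTR90B (unspecified LTR) near Rbm46, an LTR81A (ERV1?) near Cps1 and an LTR85b (Gypsy?) near D3Ertd751e. Their log2 changes were -0.54 ± 0.35, -0.36 ± 0.16, -0.21 ± 0.27, 0.43 ± 0.30 and 0.50 ± 0.29, with adjusted p from 0.307 to 0.811. For the Cps1 copy, near the first enzyme of the urea cycle, the values were 15.8, 9.13 and 11.5 RPKM in fasted and 14.8, 19.6 and 13.9 RPKM in refed libraries, which overlap.

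LTR peaks assigned to genes of fasting and feeding metabolism were few. Of 66 listed genes, 13 had 17 LTR peaks; 1 rose (Scd1) and 1 fell (Cyp4a32), or 11.8%, against 12.5% of all 521 peaks at the listed genes. The median log2 change of the 13 LTR peaks at feeding genes was 0.31, against 0.21 for all 242 peaks at those genes, and of the 4 at fasting genes -0.49, against -0.16 for 279 peaks. The largest uncalled gains at feeding genes were at Me1 and Ppp1r3b. An ORR1A4 at Me1, which encodes malic enzyme, averaged 6.55 RPKM in fasted libraries and 17.6 RPKM in refed ones (1.53, limma adjusted p = 0.0712). An MTD at Ppp1r3b, a glycogen-targeting subunit of protein phosphatase, averaged 12.6 and 21.1 RPKM (0.76, adjusted p = 0.164). Another LTR peak at Me1, an ERVL-B4-int, went down from 25.5 to 18.8 RPKM (-0.48). So did LTR peaks at Fads2 (-0.61) and Acly (-0.18), all with limma adjusted p of at least 0.412.

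Among the members 2 LTR peaks covered a gene start, both annotated to intron 1. Peaks annotated as promoters are not among the members, so this is no count of LTR copies at gene starts. A MuLV-int at the start of Cmah, the gene of CMP-sialic acid hydroxylase, had 33.1, 28.1 and 25.3 RPKM in fasted and 19.8, 21.9 and 22.7 RPKM in refed libraries. The fasted libraries were all higher, but the log2 change of -0.42 ± 0.17 did not pass the test (limma adjusted p = 0.270). An ORR1B1 at the start of Tpst1, which encodes a tyrosylprotein sulfotransferase, averaged 16.7 ± 4.60 RPKM in fasted libraries and 12.6 ± 2.60 RPKM in refed ones (adjusted p = 0.605).

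Promoters of the genes that silence LTR elements did not pass the test. Of 42 such genes, among them Trim28 and Setdb1 of the KRAB zinc finger pathway and the DNA methyltransferases, 35 had 41 promoter peaks, and 0 of these were called by limma, edgeR or DESeq2. At an unadjusted p under 0.05 limma had 2, at Tet3 and Dnmt3a. Over the 41 peaks the median log2 change was -0.04, against -0.02 over all 14565 promoter peaks, of which 0.487% were called. At Tet3, which encodes an enzyme that oxidises methylated cytosine, the values were 62.5, 69.9 and 69.2 RPKM in fasted and 53.5, 54.1 and 53.1 RPKM in refed libraries (-0.33 ± 0.09, limma adjusted p = 0.0863). At Dnmt3a, which encodes a DNA methyltransferase, the log2 change was 0.38 ± 0.17 (adjusted p = 0.336).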

How the data were processed

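Groups follow the labelled treatment of the 3 fasted and 3 refed liver ATAC-seq libraries. About 50000 nuclei from 50 to 100 mg of tissue entered each reaction, per the labels' protocols. The submitters' processing notes name mm9 and the tools Bowtie2, MACS2, HOMER, SAMtools, cutadapt, FastQC and DESeq2, with settings not given in the sources used. As stated per the file headers, duplicates were removed, unique reads kept and a merged peak set annotated. The deposited table holds RPKM, scaled by the authors to reads in peaks, and log2 RPKM. An empty peak was set by the authors to 0.9 reads, as the values show; its log2 change is then fixed by the library sizes at 0.00. Read counts recovered from the RPKM steps (tolerance 0.01 reads) were whole or at that value for 100% of peaks, and all 3314 peaks of the edgeR table that the authors deposited had the same counts there. That table also gives the authors' p-value and FDR, and the deposited ratio of group means was not used.

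The log2 RPKM of all peaks were fitted with limma 3.58.1 (lmFit, eBayes with an intensity trend) in R 4.3.3, refed minus fasted, Benjamini-Hochberg adjusted over all peaks, threshold 0.05. No filter or pseudocount was applied. On recovered reads, the quasi-likelihood test of edgeR 4.0.16 (TMM and filterByExpr) and DESeq2 1.42.0 were run as alternatives; other scalings, filters, a pseudocount of 1, array weights and each library left out were also tried. Fits were checked on simulated reads. Named peaks are, for each direction, the 12 called peaks with the largest change and no overlap of groups, 1 per gene, the 3 strongest peaks of each main family, the smallest p in families with no call, and called peaks at listed metabolic genes. Repeat ages follow the start of the repeat name. The members, lists and tests were chosen with earlier results of these data known. A promoter peak lies within 1000 bp of a gene start. Symbols turned into dates by a spreadsheet (3 members) were restored through Entrez IDs. Coordinates are 1-based mm9; no mm9 sequence was used. Counts include some peaks at listed genes that are not reported here.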

Additional observations from a re-analysis of the deposited data

How the results depend on the processing

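The count of LTR peaks higher in refed liver, 31 by limma, was 334 with array weights, 71 with edgeR, 70 with edgeR without a filter, 0 without an intensity trend and 1 after quantile normalization; it ranged from 3 to 45 with a library left out. The count of lower peaks, 17 by limma, was 143, 47, 47, 0 and 1 under the same settings and 27 with median centring, and ranged from 1 to 15 with a library left out. The cause was not tested. Over all peaks, array weights called 8.81% higher and 4.27% lower, against 10.6% and 4.54% of LTR peaks. EdgeR without a filter called 2.07% and 1.21% of all peaks, against 2.22% and 1.49% of LTR peaks. Median centring called 1.20% and 0.819%, against 1.36% and 0.857%. Without a trend 0 of all peaks were called, and after quantile normalization 0.0958% and 0.0310%. With a library left out, 0.104% to 1.31% of all peaks were higher and 0.0648% to 0.285% lower. DESeq2, log2(RPKM + 1) and leaving out peaks in the lowest quartile kept both counts within 1.5 times. Of the 24 largest called changes, 0 changed direction under any setting; 24 lost the call without a trend, 23 after quantile normalization (the Eva1c copy kept it), 4 with DESeq2 and 3 with log2(RPKM + 1). With a library left out, 3 to 18 of the 24 lost it, and the copies at Cyp4a32, Eva1c and Scd1 kept it in all 6 such fits. The median log2 change of all LTR peaks was -0.0588 after quantile normalization and from -0.0153 to 0.105 with a library left out. The ratios of summed shares, recomputed with another library size, without weak or the 10 strongest peaks and with a library left out, moved by less than 1 SD between libraries. No paired analysis was possible because the groups share no replicate number. Of ERV1 peaks, 65.5% have a mean under 10 reads, which limits what can be called there.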
